A study of Mus musculus with 6 samples.

Results

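The transcripts of voltage-gated calcium channel subunits were compared in the hippocampus of mice with and without a mutated glutamate transporter. The genes were taken by name, as the 10 rows among 54532 in the table whose symbol is Cacna1a, Cacna1b, Cacna1c, Cacna1d, Cacna1e, Cacna1g, Cacna1h, Cacna1i, Cacna2d1 or Cacna2d3, a rule that uses no measured value. All 10 were above the filter on low values. In the TG mice, exon 3 of Slc1a2 holds the G82R and L85P changes. Slc1a2 is the gene of the astrocytic glutamate transporter GLT-1, and the changes were knocked in with CRISPR/Cas9 on a C57BL/6N background. The controls were WT littermates, and hippocampal RNA was sequenced in 3 WT and 3 TG libraries, named WT1 to WT3 or TG1 to TG3, for which no source states the number of animals in each. The change is in the genome of every cell of the TG mouse and is not driven by a promoter of 1 cell type. The study obtained few such mice, used both sexes, and the sources used here do not state the age, the zygosity or which of its animals were sequenced. Slc1a2 itself had an FPKM of 202, 199.5 and 177 across WT1 to WT3 against 222, 207 and 217 across TG1 to TG3 (adjusted p = 0.789 in limma), and FPKM cannot show the 2 amino acid changes. All TG values lay above all WT values, as in 6.35% of all genes tested, with a log2 fold change of 0.16. These values are RNA, whereas the paper reports from Western blots that GLT-1 protein was almost lost in TG hippocampus.

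Voltage-gated calcium channels open when the membrane depolarizes and let calcium into the cell. The pore is a single large subunit encoded by a Cacna1 gene, and that gene sets the class of the current. Cacna1a, Cacna1b and Cacna1e encode the P/Q-, N- and R-type pores that feed transmitter release at presynaptic terminals, Cacna1c and Cacna1d encode L-type pores that couple activity to gene expression, and Cacna1g, Cacna1h and Cacna1i encode the T-type pores that open at low voltage and support burst firing. The α2δ proteins, Cacna2d1 and Cacna2d3 among them, carry channels to the surface, and α2δ-1 is the binding site of gabapentin. In the hippocampus these channels serve release, dendritic excitability and bursting, and several of the genes are linked to epilepsy.

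The authors deposited FPKM, the reads on a gene scaled to its length and to the library. The reads on genes were between 16081281 and 18751057 per library, and 3 reads over 1 kb of exon equal an FPKM of 0.160 to 0.190. Each of the 10 genes rested on at least 745 reads in every library, and such limits cover counting error only, since no molecular identifiers separate copies of 1 molecule. Differences were tested with limma on log2(FPKM + 0.1) over the 20952 genes whose mean FPKM reached 0.1, with Benjamini-Hochberg adjustment over all of them, and fold changes are differences on that log2 scale, TG minus WT. Markers of dentate granule cells, CA1 and CA3 were present in all 6 libraries, with every single marker at an FPKM of at least 5.09. The markers of the choroid plexus, a secretory tissue of the ventricles, summed to between 57.5 and 81.9 in the WT libraries and TG3, but to 1209 in TG1 and 3819 in TG2. Bulk tissue cannot tell fewer cells of a type from less RNA per cell.

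The genes are large and spread over the genome. Cacna1i (ENSMUSG00000022416) lies on chromosome 15 from 80287238 to 80398279 in GRCm38, Cacna1g (ENSMUSG00000020866) on chromosome 11 from 94408391 to 94474198, and Cacna1h (ENSMUSG00000024112) on chromosome 17 from 25374285 to 25433783. Cacna1a (ENSMUSG00000034656) lies on chromosome 8 from 84388440 to 84640246, Cacna1b (ENSMUSG00000004113) on chromosome 2 from 24603887 to 24763152, and Cacna1e (ENSMUSG00000004110) on chromosome 1 from 154390731 to 154884501. Cacna1c (ENSMUSG00000051331) lies on chromosome 6 from 118587240 to 119196418 and Cacna1d (ENSMUSG00000015968) on chromosome 14 from 30039939 to 30491455. The α2δ genes Cacna2d1 (ENSMUSG00000040118), on chromosome 5 from 15934691 to 16374511, and Cacna2d3 (ENSMUSG00000021991), on chromosome 14 from 28904943 to 29721864, span 439.8 and 816.9 kb. The counted exons, the union of the exons of all annotated transcripts, summed to between 8720 bases in Cacna2d3 and 25228 bases in Cacna1e. GC content, here and below, is that of the longest annotated transcript of a gene and not of all counted exons. It was 58.4% in Cacna1a, 58.1% in Cacna1g, 60.0% in Cacna1h and 59.3% in Cacna1i. It was between 48.3% and 52.9% in Cacna1b, Cacna1c, Cacna1d, Cacna1e and Cacna2d3 (49.1%), and was lowest in Cacna2d1 at 40.7%. At most 4.18% of the 50-base stretches of a gene, in Cacna1d, are shared with transcripts of other genes. Exons of another gene on the opposite strand cover 3.81% of the exons of Cacna1a, 4.67% of Cacna1d and 1.62% of Cacna1h, and since the strand of counting is not stated, reads there cannot be assigned.

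The 250 bases before the start site are printed for the 5 subunits with a single RefSeq window. They were chosen because they include pore-forming genes that varied together between the libraries and the α2δ genes, which were not low in WT3 with them. Sequences are from RefSeq on GRCm38.p6, 5′ to 3′ on the strand of the gene, and capitals mark the GC box GGGCGG or its reverse complement CCGCCC. The windows are chr2:24763153-24763402 (minus strand) for Cacna1b, chr1:154725921-154726170 (minus strand, inside the annotated span of the gene) for Cacna1e, chr15:80286988-80287237 (plus strand) for Cacna1i, chr5:15934441-15934690 (plus strand) for Cacna2d1 and chr14:29721865-29722114 (minus strand) for Cacna2d3.
Cacna1b: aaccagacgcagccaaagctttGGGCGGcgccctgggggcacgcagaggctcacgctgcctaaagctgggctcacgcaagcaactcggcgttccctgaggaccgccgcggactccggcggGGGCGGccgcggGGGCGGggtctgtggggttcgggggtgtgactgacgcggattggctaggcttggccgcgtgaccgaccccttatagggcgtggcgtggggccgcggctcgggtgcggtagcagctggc
Cacna1e: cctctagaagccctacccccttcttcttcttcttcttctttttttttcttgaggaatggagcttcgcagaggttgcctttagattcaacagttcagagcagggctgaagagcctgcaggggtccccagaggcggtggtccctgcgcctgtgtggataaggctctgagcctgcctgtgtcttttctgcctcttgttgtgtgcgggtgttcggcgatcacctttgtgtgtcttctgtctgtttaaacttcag
Cacna1i: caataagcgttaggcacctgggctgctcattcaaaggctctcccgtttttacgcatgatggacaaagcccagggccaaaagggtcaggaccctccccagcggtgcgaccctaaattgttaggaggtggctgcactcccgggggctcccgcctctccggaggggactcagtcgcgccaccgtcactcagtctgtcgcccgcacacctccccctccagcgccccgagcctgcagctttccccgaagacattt
Cacna2d1: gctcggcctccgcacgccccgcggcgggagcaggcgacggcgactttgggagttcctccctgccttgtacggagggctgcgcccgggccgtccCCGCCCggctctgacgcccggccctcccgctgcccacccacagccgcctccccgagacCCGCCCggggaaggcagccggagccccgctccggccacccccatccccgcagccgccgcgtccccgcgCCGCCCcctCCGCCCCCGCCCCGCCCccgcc
Cacna2d3: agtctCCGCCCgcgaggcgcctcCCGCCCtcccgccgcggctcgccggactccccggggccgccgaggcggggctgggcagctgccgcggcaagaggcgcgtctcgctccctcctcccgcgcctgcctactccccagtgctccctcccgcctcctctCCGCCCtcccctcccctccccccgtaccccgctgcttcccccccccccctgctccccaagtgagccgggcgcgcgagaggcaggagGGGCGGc
Cacna2d1 had 6 GC boxes, Cacna2d3 had 4 and Cacna1b had 3, while Cacna1e and Cacna1i had 0, against 32.7% of 32851 RefSeq windows of this length with at least 1. GC boxes may overlap each other in runs. The GC content of the window was 82.4% for Cacna2d1, 80.0% for Cacna2d3, 72.0% for Cacna1b, 62.4% for Cacna1i and 52.0% for Cacna1e, against a median of 52.4% over all windows. None of the 5 windows held TATAAA or TGACGTCA, which were found, on either strand, in 12.4% and 1.5% of all windows. Cacna1c has 3 windows and Cacna1d has 2, and these pore-forming genes also had windows rich in GC boxes. The windows of Cacna1c held 0, 6 and 0 GC boxes, with a GC content of 82.8% in the one with 6. Those of Cacna1d held 5 and 0, with a GC content of 86.4% in the one with 5. Cacna1a, Cacna1g and Cacna1h were not matched in the promoter table.

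In WT mice, Cacna2d1 was the most abundant subunit per length, followed by Cacna1e, Cacna1a, Cacna1h, Cacna1b, Cacna2d3, Cacna1i, Cacna1g, Cacna1c and Cacna1d. The mean FPKM ran from 18.4 ± 0.570 (SD, n = 3) for Cacna2d1 to 4.11 ± 0.925 (SD, n = 3) for Cacna1d. The libraries of most neighbours in that order overlapped, and only Cacna2d3 over Cacna1i and Cacna1i over Cacna1g were apart, by 1.23-fold and 1.52-fold. In TG mice the order was the same except that Cacna1i (11.6 ± 1.23, SD, n = 3) stood level with Cacna2d3 (11.5 ± 1.17, SD, n = 3), and the neighbours that did not overlap were Cacna2d3 over Cacna1g, by 1.60-fold, and Cacna1c over Cacna1d, by 1.51-fold. Levels per length depend on which transcripts are counted. Scaled to the longest annotated transcript in place of all exons, Cacna2d3 moved up to 27.8 ± 0.725 (SD, n = 3) in WT mice, next to Cacna2d1 at 30.8 ± 0.952 (SD, n = 3), and Cacna1d stayed lowest at 5.37 ± 1.21 (SD, n = 3).

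**Figure D1:**
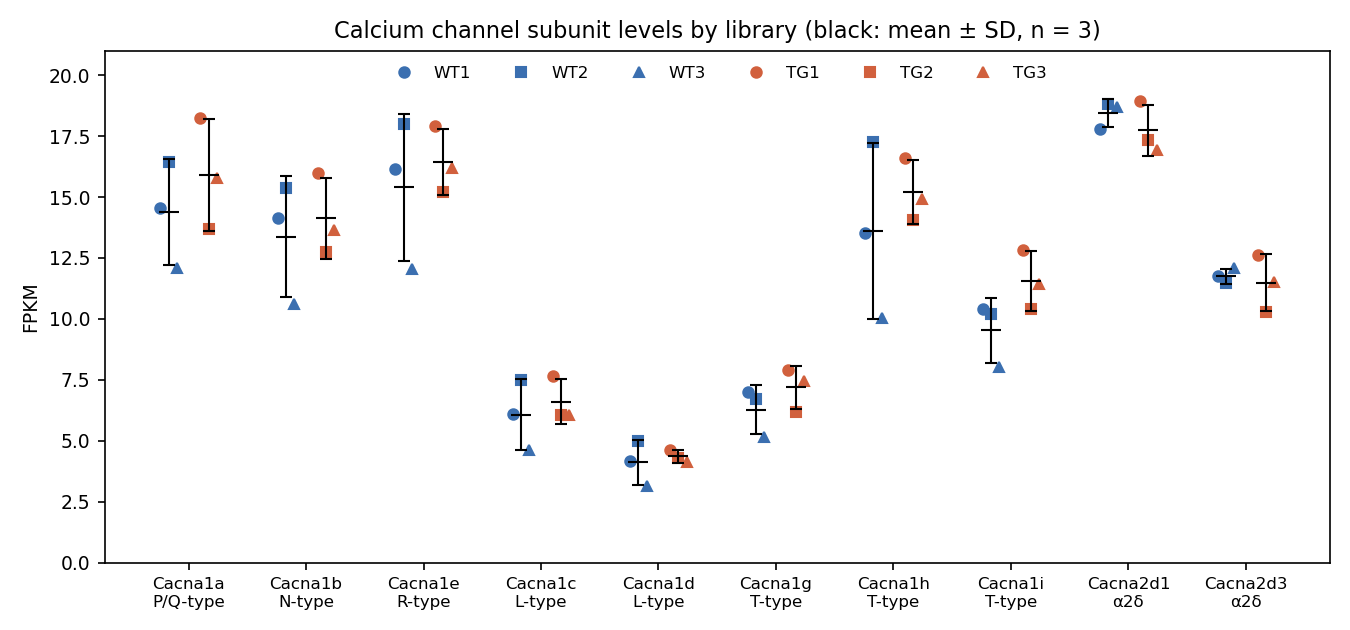
FPKM of the 10 subunits in each library, with WT libraries in blue and TG libraries in red and a different symbol for each replicate number; black bars are the mean ± SD over 3 libraries. The WT3 triangle is the lowest point of each of the 8 pore-forming genes, and the groups overlap in all 10 genes.

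None of the 10 subunits differed between the genotypes at an adjusted p under 0.05 or at an unadjusted p under 0.05 in limma. Over all genes tested, 0.00477% were higher and 0.00477% were lower at the adjusted threshold, and 5.91% passed the unadjusted one. With voom on the recovered reads, 0 subunits passed the adjusted threshold and 1, Cacna1i, passed the unadjusted one. Over all 20952 genes, voom placed 814 higher and 485 lower at the unadjusted threshold. The 8 pore-forming genes had log2 fold changes above 0, from 0.09 to 0.28, and the 2 α2δ genes had values of -0.058 and -0.038. The pore-forming values stayed above 0 in TPM and after quantile normalisation, but 5 of them did not after a correction for gene length and GC content. The median over the 10 genes was 0.12, and that of all genes tested was -0.002, with 49.6% above 0. In none of the 10 genes did the TG libraries lie apart from the WT libraries, whereas the groups did not overlap in 12.1% of all genes tested.

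Among the presynaptic pores, Cacna1a, the P/Q-type subunit, had an FPKM of 14.6, 16.4 and 12.1 across WT1 to WT3 against 18.2, 13.7 and 15.8 across TG1 to TG3. TG1 was the highest library and TG2 lay among the WT libraries, and the log2 fold change was 0.15 (standard error 0.142, 95% interval -0.19 to 0.48). Cacna1b, the N-type subunit, had 14.1, 15.4 and 10.6 across the WT libraries against 16.0, 12.7 and 13.7 across the TG libraries. The highest and the second highest value of Cacna1b were in TG1 and WT2, and its log2 fold change was 0.09 (standard error 0.151, 95% interval -0.27 to 0.44). Cacna1e, the R-type subunit, had 16.2, 18.0 and 12.1 across the WT libraries against 17.9, 15.2 and 16.2 across the TG libraries. For Cacna1e the WT libraries spanned more than the TG libraries and enclosed all of them, with a log2 fold change of 0.11 (standard error 0.148, 95% interval -0.24 to 0.46). The adjusted p of the 3 genes in limma was 0.800, 0.890 and 0.858.

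The L-type pores had the lowest mean FPKM, although Cacna1c overlapped with Cacna1g and was above it when levels were scaled to the longest transcript (9.79 ± 2.32 against 7.60 ± 1.20 in WT mice, SD, n = 3). Cacna1c, the main L-type subunit of neurons and heart, had an FPKM of 6.10, 7.51 and 4.63 across WT1 to WT3 against 7.67, 6.08 and 6.07 across TG1 to TG3. Its lowest library was WT3 and its highest 2 were TG1 and WT2, and the log2 fold change was 0.14 (standard error 0.183, 95% interval -0.29 to 0.57). Cacna1d, the L-type subunit that opens at more negative voltage, had 4.19, 4.999 and 3.15 across the WT libraries against 4.64, 4.31 and 4.15 across the TG libraries. All TG values of Cacna1d lay inside the WT range, and the log2 fold change was 0.11 (standard error 0.164, 95% interval -0.28 to 0.49). The adjusted p in limma was 0.858 for Cacna1c and 0.878 for Cacna1d. The ratio of Cacna1c to Cacna1d was 1.48 ± 0.0241 in WT mice against 1.51 ± 0.128 in TG mice (SD over n = 3 each), so the TG libraries spread on both sides of the WT mean.

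The T-type pores had the 3 largest fold changes of the 10 genes. Cacna1i had an FPKM of 10.398, 10.2 and 8.01 across WT1 to WT3 against 12.8, 10.396 and 11.4 across TG1 to TG3. TG2 lay just below WT1, so the groups overlapped, and WT3 was again the lowest library. The means were 9.54 ± 1.33 in WT mice against 11.6 ± 1.23 in TG mice (SD over n = 3 each), which gave a log2 fold change of 0.28 (standard error 0.126, 95% interval -0.018 to 0.58). In limma, the unadjusted p of Cacna1i was 0.0622 and the adjusted p was 0.786. Cacna1g, strongly expressed in thalamic relay cells, had 6.98, 6.72 and 5.15 across the WT libraries against 7.92, 6.20 and 7.47 across the TG libraries. TG1 and TG3 lay above the WT libraries and TG2 below WT1 and WT2, with a log2 fold change of 0.20 (standard error 0.145, 95% interval -0.14 to 0.54). Cacna1h, the T-type subunit most sensitive to nickel, had 13.5, 17.2 and 10.03 across the WT libraries against 16.6, 14.04 and 14.9 across the TG libraries. WT2 was the highest and WT3 the lowest library of Cacna1h, and the log2 fold change was 0.19 (standard error 0.184, 95% interval -0.24 to 0.62). The adjusted p in limma was 0.789 for Cacna1g and 0.800 for Cacna1h. Markers of thalamus and habenula, where T-type genes are abundant, summed to an FPKM of 22.3, 16.3 and 18.8 across the WT libraries against 19.1, 18.8 and 23.7 across the TG libraries, which overlapped, and none of the 8 differed at an unadjusted p under 0.05.

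The α2δ genes varied less over the 6 libraries than the pores. Cacna2d1 had an FPKM of 17.8, 18.8 and 18.7 across WT1 to WT3 against 18.9, 17.3 and 16.9 across TG1 to TG3. TG1 was the highest library and TG3 the lowest, and the log2 fold change was -0.058 (standard error 0.0705, 95% interval -0.22 to 0.11). Cacna2d3 had 11.7, 11.5 and 12.1 across the WT libraries against 12.6, 10.3 and 11.5 across the TG libraries. The TG libraries of Cacna2d3 reached above and below all WT libraries, and the log2 fold change was -0.038 (standard error 0.0887, 95% interval -0.25 to 0.17). The adjusted p in limma was 0.844 and 0.924. The ratio of Cacna2d1 to Cacna2d3 was 1.57 ± 0.0667 in WT mice against 1.55 ± 0.117 in TG mice (SD over n = 3 each).

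**Figure D2:**
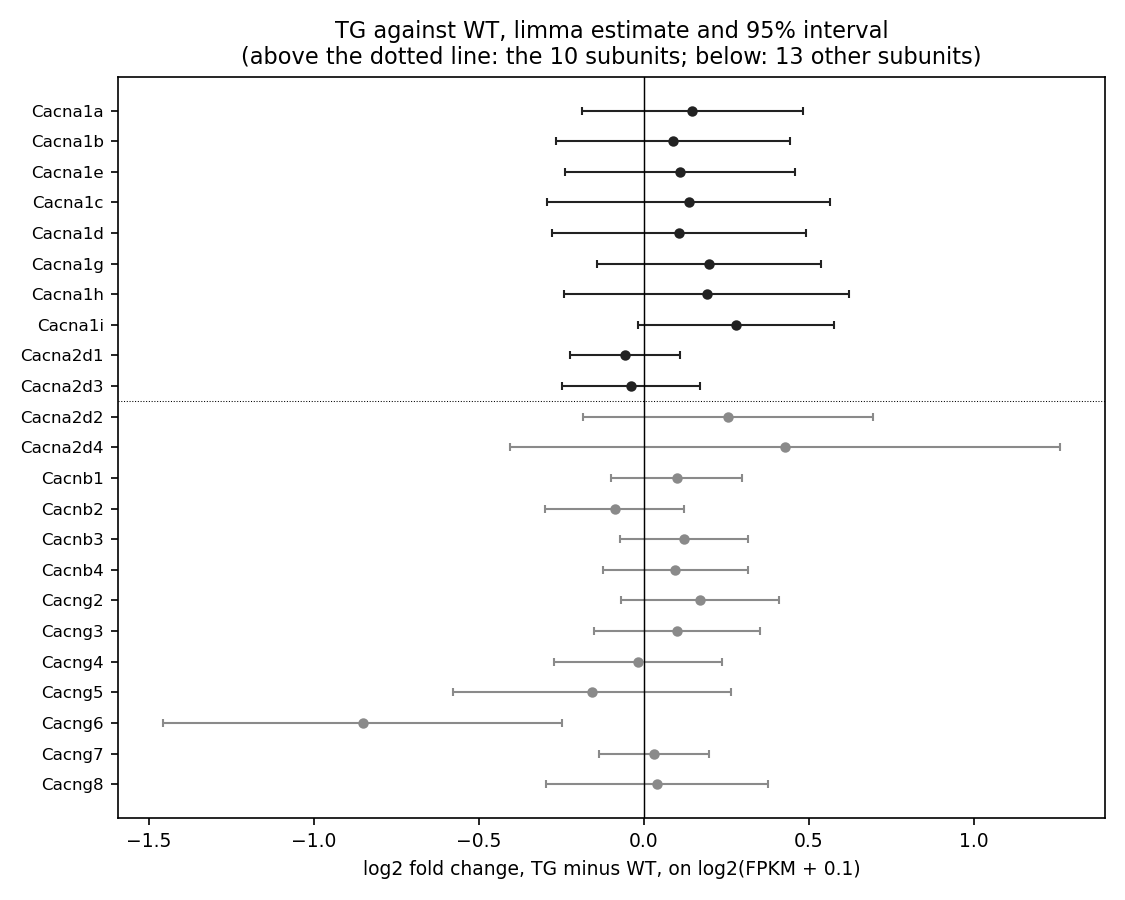
Log2 fold change, TG minus WT, on log2(FPKM + 0.1), with its 95% interval from limma, for the 10 subunits above the dotted line and for 13 other subunit genes below it. The interval of each of the 10 subunits includes 0, and among the others only that of Cacng6 (-1.46 to -0.25) does not.

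The pore-forming genes varied together from library to library. WT3 was the lowest of the 6 libraries for all 8 of them, and it was the lowest for 25.4% of all genes tested. TG1 was the highest library for 7 of the 10 subunits, and it was the highest for 19.1% of all genes tested. The 7 were the pore-forming Cacna1a, Cacna1b, Cacna1c, Cacna1g and Cacna1i and the α2δ genes Cacna2d1 and Cacna2d3. WT2 was the highest for the other subunits, Cacna1d, Cacna1e and Cacna1h, and its share over all genes was not computed. As log2 deviations from each gene's WT mean, the median of the 8 pore-forming genes was 0.07, 0.23 and -0.32 across WT1 to WT3 against 0.33, 0.013 and 0.12 across TG1 to TG3. The spread inside either genotype was therefore larger than the difference between the genotypes. In WT3, the single values ran from -0.40 for Cacna1h to -0.23 for Cacna1a. The 2 α2δ genes were also highest in TG1 but did not share the low values in WT3. Their medians were -0.026, -0.003 and 0.03 across the WT libraries against 0.07, -0.14 and -0.076 across the TG libraries.

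Other long genes showed the pattern as well. The 912 other genes with at least 8000 counted bases and a GC content of at least 48% had medians of 0.07, 0.10 and -0.17 across WT1 to WT3 against 0.19, 0.07 and 0.11 across TG1 to TG3, with the same libraries, WT3 and TG1, as lowest and highest. Their median log2 fold change was 0.12, and 85.5% were above 0. In the 215 of these with a GC content of at least 55% it was 0.16, with 94.0% above 0, and in 865 long genes with a GC content under 45% it was 0.024, with 57.7% above 0. The 2654 genes under 2000 bases went the other way, with medians of 0.13 in WT3 and -0.18 in TG1 and a median log2 fold change of -0.11. Cacna1a, Cacna1g, Cacna1h and Cacna1i are in the most GC-rich class by their base content, and Cacna2d1 is in the GC-poor one. Cacna2d3 has 8720 counted bases and a GC content of 49.1%, which was taken from its longest transcript of 3695 bases. By these measures it falls in the long GC-rich class, and the GC content of its other counted bases was not computed. It did not follow that class, with a deviation of 0.038 in WT3 and a log2 fold change of -0.038.

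**Figure D3:**
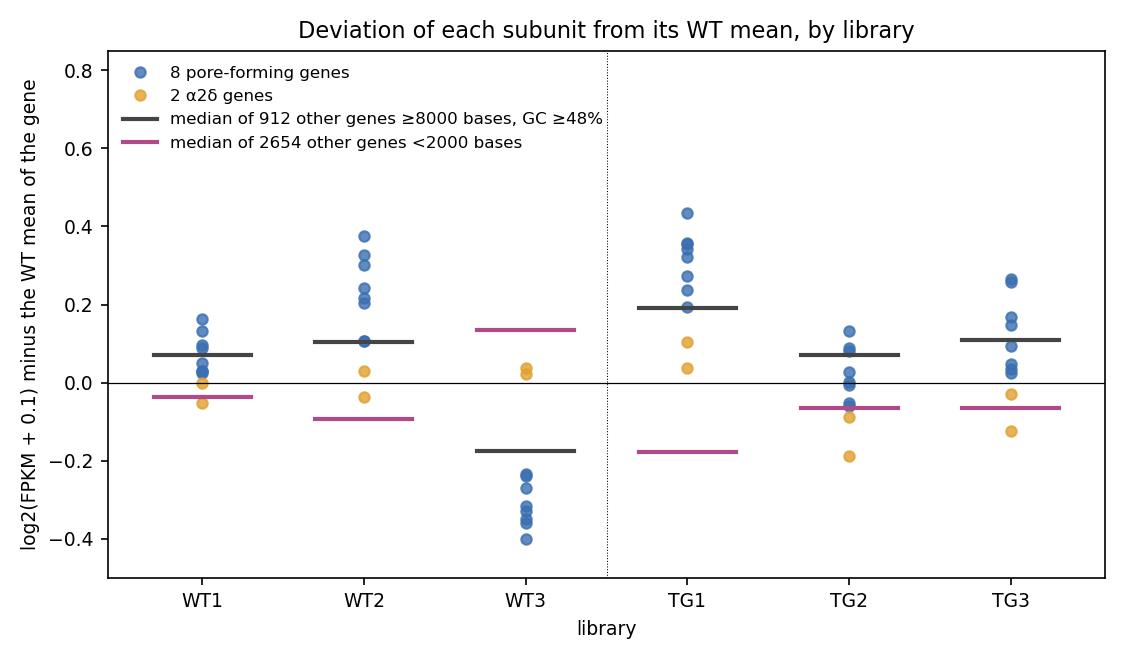
Deviation of each subunit from its own WT mean, on log2(FPKM + 0.1), in the 6 libraries, with the 8 pore-forming genes in blue, the 2 α2δ genes in yellow, and horizontal lines for the median of 912 other long GC-rich genes (black) and of 2654 short genes (purple). The blue points lie at or below -0.23 in WT3 and at or above 0.19 in TG1, on the side of the black line, while the yellow points stay between -0.19 and 0.10.

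The fold changes of the pore-forming genes depended on single libraries. Their median log2 fold change of 0.14 was -0.027 without WT3, 0.055 without TG1 and 0.036 after the libraries were corrected for gene length. It was -0.021 after a correction for length and GC content together, which was chosen after seeing the data. The median was higher without WT2 (0.25), without TG2 (0.22) and relative to neuronal markers (0.19). Without WT3, 5 of the 8 were below 0, Cacna1b, Cacna1c, Cacna1d, Cacna1e and Cacna1h, with values from -0.069 to -0.01. After the correction for length and GC content, Cacna1a, Cacna1b, Cacna1c, Cacna1d and Cacna1e were below 0 and the T-type genes Cacna1g, Cacna1h and Cacna1i stayed above it, at 0.04, 0.03 and 0.12. The fold change of Cacna1i was between 0.16 without WT3 and 0.35 without TG2. It passed an unadjusted p under 0.05 without WT1 (0.34), without TG2 (0.35), in voom (0.28) and relative to neuronal markers (0.32). Cacna1h passed it without WT2 (0.38), and at no alternative did any of the 10 genes pass the adjusted threshold (smallest adjusted p 0.657). With a choroid plexus score as a covariate in limma, the median of the 10 genes was 0.099 in place of 0.12. That of the 8 pore-forming genes was 0.15 in place of 0.14. The 6 neuronal markers summed to 695, 682 and 753 across the WT libraries against 707, 649 and 690 across the TG libraries. The markers went different ways in WT3, where the pores were lowest. Snap25 (301), Nefl (117.9) and Stmn2 (70.5) were at their highest of the 6 libraries there, Rbfox3 (41.9) and Map2 (58.4) were at their lowest, and Syt1 (163.8) was second lowest. The part of neuronal content in the result was not tested.

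**Figure D4:**
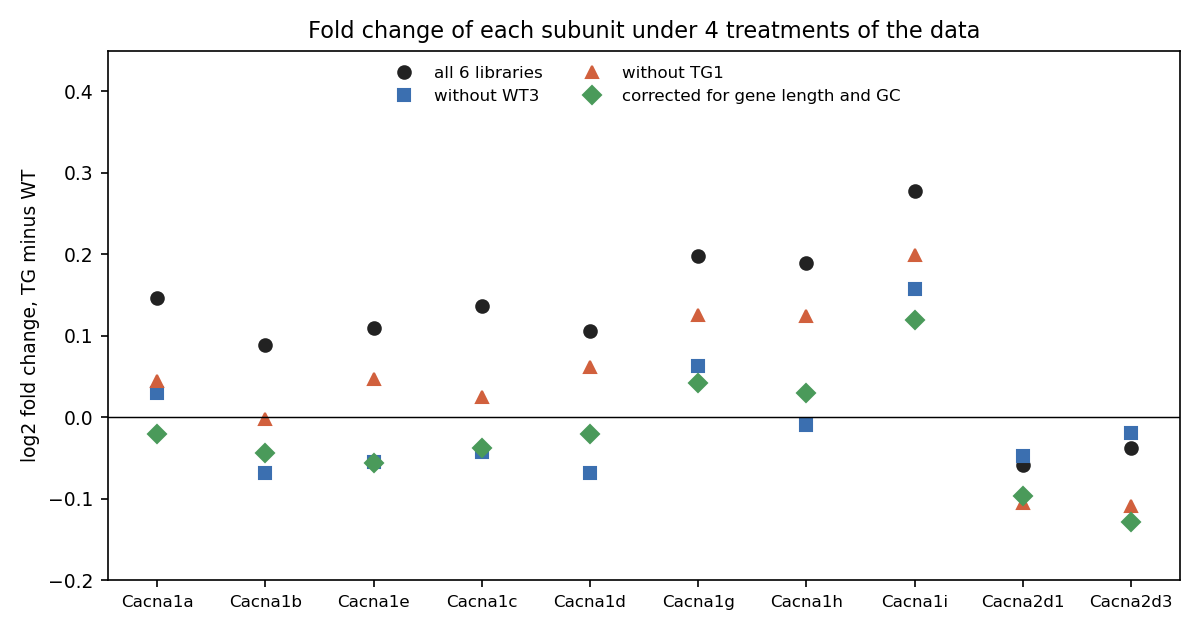
Log2 fold change of the 10 subunits, TG minus WT, with all 6 libraries (black), without WT3 (blue), without TG1 (red) and after correcting libraries for the length and GC content of genes (green). The black points of the 8 pore-forming genes lie above 0, and the blue and green points lie lower in each of these 8 genes, with Cacna1g and Cacna1i above 0 throughout.

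Shares inside a library do not depend on its scaling, and 4 of the 11 shares compared, for 8 genes and 3 classes, lay apart between the groups. The FPKM of 12.1% of all genes tested did, but FPKM is an unlike measure. No shares were computed for other gene sets, so the count of 4 cannot be read as an excess. The 4 are not independent, since the class shares contain those of their genes and all 8 genes sum to the whole. Each pore-forming gene was expressed as a percent of the summed FPKM of the 8, which was 86.0, 96.5 and 65.7 across WT1 to WT3 against 101.8, 82.6 and 89.7 across TG1 to TG3. The T-type genes together held 35.9%, 35.4% and 35.3% across the WT libraries against 36.7%, 37.1% and 37.7% across the TG libraries. All TG values lay above all WT values, and the means were 35.5% ± 0.330 and 37.2% ± 0.491 (SD over n = 3 each). Cacna1i alone held 12.1%, 10.6% and 12.2% across the WT libraries against 12.6%, 12.6% and 12.7% across the TG libraries, again without overlap. The presynaptic pores Cacna1a, Cacna1b and Cacna1e together held 52.1%, 51.6% and 52.9% across the WT libraries against 51.2%, 50.4% and 50.9% across the TG libraries, all TG values below all WT values. Within them, Cacna1b went from 16.2% ± 0.250 to 15.4% ± 0.228 (SD over n = 3 each), also without overlap. The L-type share overlapped, at 12.3% ± 0.620 in WT mice against 12.01% ± 0.590 in TG mice (SD over n = 3 each). The T-type share was highest in TG3, where the choroid plexus markers summed to 65.8. The sums for thalamus and habenula (23.7) and for cortex (31.6) were also at their highest of the 6 libraries there. The single markers differed: Rgs16, Lef1, Slc17a6 and Plekhg1 were highest in TG3, and Tcf7l2, Prkcd, Ramp3 and Tac2 in WT1. Of the cortex markers, Rorb, Cux2 (4.03) and Tbr1 were highest in TG3 and Lamp5 in WT3. Cux2 also lay apart, at 2.795, 2.38 and 2.26 across WT1 to WT3 against 3.24, 3.25 and 4.03 across TG1 to TG3. Its log2 fold change was 0.48 (unadjusted p = 0.00844 and adjusted p = 0.786 in limma). It was the 1 of the 4 cortex markers past an unadjusted p under 0.05, against 5.91% of all genes tested. WT1, with a T-type share of 35.9%, had a thalamus and habenula sum of 22.3. The part of these cells in the shares was not tested. As values over chosen genes, shares were not tested.

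With the correction for length and GC content, the T-type share ran from 34.9% to 36.0% in the WT libraries and from 36.4% to 37.8% in the TG libraries, and the share of Cacna1i from 10.7% to 12.1% and from 12.5% to 12.8%, so both still lay apart. The shares of the presynaptic pores and of Cacna1b overlapped after it. The ratio of the α2δ genes to the pores, as summed FPKM, was 0.343, 0.314 and 0.468 across WT1 to WT3 against 0.310, 0.334 and 0.317 across TG1 to TG3. It was highest in WT3, where the pores were low, and otherwise overlapped.

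**Figure D5:**
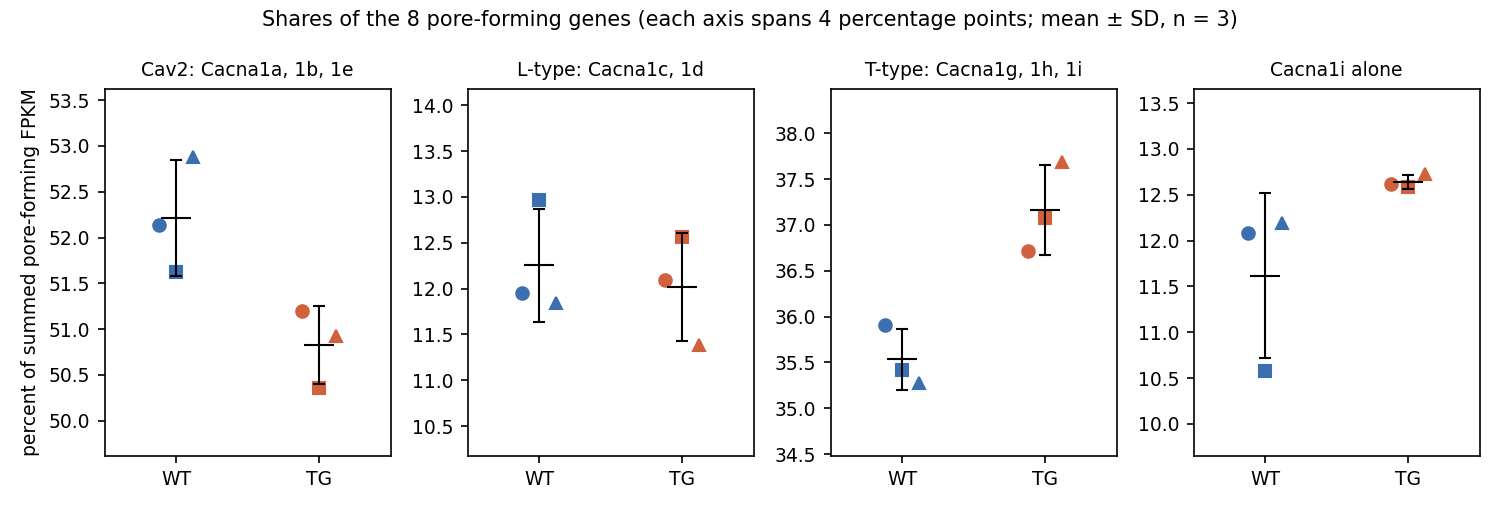
Percent of the summed FPKM of the 8 pore-forming genes held by the presynaptic, L-type and T-type classes and by Cacna1i alone, in WT (blue) and TG (red) libraries, with circles for replicate 1, squares for 2 and triangles for 3, and with mean ± SD; each axis spans 4 percentage points and does not start at 0. The T-type and Cacna1i points of the TG libraries lie above those of the WT libraries by 1 to 2 percentage points in the mean, and the L-type points overlap.

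The remaining subunits of the family were compared from a list of 16 genes, of which 13 reached a mean FPKM of 0.1. In limma, 0 of the 13 passed the adjusted threshold, and at an unadjusted p under 0.05 0 were higher and 1 was lower, against 3.13% and 2.78% of all genes. With voom, 0 passed the adjusted threshold and 2, Cacng6 and Cacna2d4, passed the unadjusted one, against 814 higher and 485 lower of all 20952 genes in voom. Of the 13, 9 had log2 fold changes above 0 and 4 below, from -0.85 for Cacng6 to 0.43 for Cacna2d4, with a median of 0.095. The most abundant were the γ subunits Cacng8 and Cacng7, which accompany AMPA receptors to the synapse, and the β subunit Cacnb3, which binds the pore from the cytoplasm. Cacng8 had an FPKM of 70.7, 84.4 and 64.5 across WT1 to WT3 against 90.0, 66.6 and 69.6 across TG1 to TG3, with WT2 and TG1 the highest as in most of the pores. Cacng7 had 63.1, 64.6 and 66.8 across the WT libraries against 66.9, 62.0 and 70.0 across the TG libraries. Cacnb3 had 53.2, 49.4 and 50.5 across the WT libraries against 61.5, 52.6 and 52.7 across the TG libraries, which overlapped (log2 fold change 0.12, standard error 0.0825). The 4 β genes had medians of 0.017, 0.05 and -0.048 across WT1 to WT3 against 0.145, -0.031 and 0.072 across TG1 to TG3, a smaller range than that of the pores.

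Cacng6, a γ subunit related to that of skeletal muscle, was the one with an unadjusted p under 0.05. Its FPKM was 0.684, 1.03 and 0.594 across WT1 to WT3 against 0.416, 0.367 and 0.336 across TG1 to TG3, on 22 to 33 reads in the WT libraries and 12 to 13 reads in the TG libraries. The highest TG value lay below the lowest WT value. The means were 0.771 ± 0.232 in WT mice against 0.373 ± 0.0401 in TG mice (SD over n = 3 each), and the log2 fold change was -0.85 (standard error 0.258, 95% interval -1.46 to -0.25). In limma the unadjusted p was 0.0123 and the adjusted p was 0.786, so Cacng6 did not pass the adjustment over all genes tested. Cacna2d4, an α2δ gene known from the retina, was the other one without overlap, with 0.120, 0.170 and 0.101 across the WT libraries against 0.173, 0.271 and 0.187 across the TG libraries on 18 to 46 reads, and it is named after its values were seen (log2 fold change 0.43, standard error 0.355). The groups lay apart, TG above, in 6.35% of all genes tested and, TG below, in 5.71%. Cacna1s, the pore of skeletal muscle, Cacna1f, the L-type pore of the retina, and Cacng1 had at most 10 reads in any library, and a difference was not detectable at this depth.

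Proteins that bind or regulate these channels were described from a list of 16 genes, all above the filter. In limma, 0 passed the adjusted threshold and 0 an unadjusted p under 0.05, as in voom, and 9 log2 fold changes were above 0 and 7 below, from -0.26 for Gem to 0.67 for Rem1, with a median of 0.033. Among the most abundant were Calm2 and Calm3, which encode calmodulin, a protein that binds the tail of the pore and inactivates the channel when calcium rises. Calm2 had an FPKM of 993, 955 and 1263 across WT1 to WT3 against 803, 936 and 979 across TG1 to TG3, highest in WT3 and lowest in TG1, the reverse of the pores. The median of the 2654 genes under 2000 bases was also highest in WT3 (0.13) and lowest in TG1 (-0.18). The part of gene length in the values of Calm2 was not tested. Calm3 had 868 ± 49.0 in WT mice against 847 ± 36.8 in TG mice (SD over n = 3 each), a difference smaller than either SD. The smallest p was that of Rem1, a small GTPase that lowers calcium current. Rem1 had 0.226, 0.144 and 0.322 across the WT libraries against 0.498, 0.388 and 0.360 across the TG libraries. These values rest on only 5 to 13 reads in the WT libraries and 14 to 17 reads in the TG libraries. Rem1 lay apart between the groups but missed the unadjusted threshold (log2 fold change 0.67, standard error 0.318, adjusted p = 0.786 in limma). The other gene that lay apart was Rims2, a scaffold of the presynaptic active zone that ties calcium channels to vesicles, named after its values were seen. Thus 2 of the 16 genes lay apart, against 12.1% of all genes tested in either direction and 6.35% with TG above. The count was not tested. Rims2 had 8.42, 8.28 and 6.68 across the WT libraries against 8.87, 8.47 and 9.37 across the TG libraries, lowest in WT3 as the pores were (log2 fold change 0.20, standard error 0.107).

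Across the 6 libraries, the genes whose log2 levels followed the mean profile of the 10 subunits most closely, of 11907 protein-coding genes whose mean FPKM reached 1, were Robo2 (Pearson's r = 0.997), Wnk2 (0.996) and Scn2a (0.996). Robo2 encodes an axon guidance receptor, Wnk2 a kinase and Scn2a a pore of voltage-gated sodium channels. The same search for Cacna1i gave Jmy (Pearson's r = 0.998), Mast2 (0.997) and Mmp24 (0.996). With 6 points that share their libraries and so many genes searched, such values describe these libraries and were not tested. Of these genes, Robo2, Wnk2, Scn2a and Jmy are longer than 8000 bases, with a GC content of 42.4%, 62.4%, 43.4% and 46.4%, so of these 4 only Wnk2 is in the long GC-rich class.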

How the data were processed

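Hippocampal RNA-seq of 3 WT and 3 TG libraries was used. The authors sequenced on an Illumina HiSeq, counted reads per gene with HTSeq and deposited FPKM, computed from the count and the gene length, with 1 column per library. Builds named in the submitters' processing notes are GRCm38 and mm10, and the aligner and the strand setting are not given in the sources used here. RNA extraction and library kits differ between the methods (Trizol, NEBNext Ultra) and the labels (RNeasy, SMARTer). Of the gene identifiers, 54409 were found in GENCODE M21 and 53499 had the same start and end. Multiplied by gene length, 100% of FPKM values came out as whole reads (tolerance 0.05 reads), which gave the reads per gene, and the reads entered only in voom.

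Log2(FPKM + 0.1) was fitted with lmFit and eBayes with a variance trend (limma 3.58.1, R 4.3.3) over the 20952 genes whose mean FPKM reached 0.1, without covariates, at a Benjamini-Hochberg threshold of 0.05. No source states how many animals are in each library, so p-values measure only the spread between these libraries. The fit was tested on simulated data. The members, lists and tests were chosen with earlier results of these data known, and no list was tested as a set. All 10 members were named, and of other lists the 3 most abundant genes and the one with the smallest p, of which 1 is not reported here; the genes most like the members were those with the highest Pearson correlation. Alternatives were other pseudocounts, filters, scalings, variance models, voom, a choroid plexus covariate, a correction for gene length, each library left out and a replicate block. The correction for length and GC content (loess), the comparison with neuronal markers and the levels per longest transcript were added after seeing the data. Tables and plots were made in Python 3.11.15 with numpy 2.4.6, pandas 2.3.3 and matplotlib 3.10.9.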

Additional observations from a re-analysis of the deposited data

How the results depend on the processing

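Of 190 fold changes of the 10 subunits under 19 alternatives, 15 changed sign, 5 passed an unadjusted p under 0.05 and 0 passed an adjusted one. The number of subunits past the unadjusted threshold was 1 with voom and 1 relative to neuronal markers, and 0 to 1 with each library left out. With 1 library left out in turn, the log2 fold change ran from -0.069 to 0.20 for Cacna1b, from -0.055 to 0.23 for Cacna1e, from -0.043 to 0.30 for Cacna1c, from -0.069 to 0.26 for Cacna1d, from -0.01 to 0.38 for Cacna1h and from -0.11 to 0.037 for Cacna2d3. The values below 0 of the pore-forming genes came without WT3, and also without TG1 for Cacna1b (-0.002). Corrected for length, Cacna1e was at -0.022. Corrected for length and GC content, Cacna1a was at -0.021, Cacna1b at -0.044, Cacna1e at -0.056, Cacna1c at -0.038, Cacna1d at -0.021 and Cacng8 at -0.007. With the choroid plexus covariate, Cacna2d3 was at 0.027 and Cacng4 at 0.092, relative to neuronal markers they were at 0.006 and 0.027, and in TPM Cacng4 was at 0.017. With 1 library left out, Cacng4 ran from -0.089 to 0.082, Cacng5 from -0.27 to 0.02, Cacng7 from -0.01 to 0.078 and Cacng8 from -0.095 to 0.15. The cause of these changes was not tested. Cacng6 was past an unadjusted p under 0.05 in 18 of 18 alternatives in which it was tested, with values from -0.999 to -0.36, and in none at an adjusted p. Over all genes, against 1 higher and 1 lower at an adjusted p under 0.05, there were 0 and 0 with a pseudocount of 1 or 0.01, with no filter, in voom, with the choroid plexus covariate and relative to neuronal markers, 0 higher with a mean FPKM of at least 1, 2 lower after the length correction, and 6 higher and 3 lower without the variance trend. Leaving out 1 library gave 0 to 11 higher (11 without TG1) and 0 to 1 lower. At an unadjusted p under 0.05, the choroid plexus covariate gave 328 higher and 371 lower, neuronal markers gave 316 lower, and without TG1 375 were lower, of a range from 375 to 721 over the libraries left out. Samples with the same number did not deviate together (correlations of 0.013, 0.043 and 0.003), so the numbers were not read as pairs. With a replicate block, 634 genes were higher and 610 lower at an unadjusted p under 0.05, 0 and 0 at an adjusted one, and the call of no subunit changed. At the depth of these libraries, Cacna1f, Cacna1s and Cacng1 could not be compared.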

Other observations

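The composition of the β subunits, which bind the pore from inside the cell, was not part of the comparisons above. Cacnb3 held 51.1%, 48.1% and 51.5% of the summed FPKM of the 4 β genes across WT1 to WT3 against 52.2%, 51.6% and 48.9% across TG1 to TG3, which overlapped. Cacnb2, the least abundant, held 4.41%, 4.71% and 4.72% across the WT libraries against 4.04%, 4.07% and 3.997% across the TG libraries, each TG value below each WT value, although the FPKM of Cacnb2 itself overlapped, at 4.69 ± 0.137 in WT mice against 4.41 ± 0.317 in TG mice (SD over n = 3 each). The ratio of the summed β genes to the summed pores was 1.21, 1.07 and 1.49 across the WT libraries against 1.16, 1.23 and 1.20 across the TG libraries, again highest in WT3. The shares of Cacnb1 and Cacnb4 among the β genes overlapped between the groups. None of these shares was tested or corrected for gene length and GC content. The GC content was 39.0% in Cacnb2 and 40.5% in Cacnb4, against 59.7% in Cacnb1 and 61.3% in Cacnb3.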
